A study of Mus musculus with 6 samples.

Results

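The response of brown adipocytes to noradrenaline rests on adrenergic receptors and on the proteins that make, degrade and sense cyclic AMP (cAMP), and 9 of these genes are described here. The genes Adrb1, Adrb3, Adra1a, Adra2a, Adcy3, Adcy6, Pde3b, Pde4d and Prkar2b were taken by symbol, and all 9 were found among the 26264 symbols of each library. In brown adipocytes noradrenaline acts on beta-adrenergic receptors, which couple to adenylyl cyclases through a stimulatory G protein. The cyclases make cAMP, cAMP releases the catalytic subunits of protein kinase A (PKA) from their regulatory subunits, and PKA starts lipolysis and thermogenesis. Alpha-2 receptors inhibit the cyclases, alpha-1 receptors signal mainly through calcium and diacylglycerol, and phosphodiesterases hydrolyse cAMP to end the signal.

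RNA sequencing was performed on immortalized brown preadipocytes and on the adipocytes derived from them, as 6 libraries with 1 library for each of 6 conditions. The cells came from the stromal vascular fraction of wild-type Bl6N mice and had been immortalized with the SV40 large T antigen. The 3 untreated libraries were taken at day 0, day 3 and day 9 after a 48 h pretreatment period, and the 3 FGF8 libraries at the same days from cells that had received 5.5 nM fibroblast growth factor 8 during those 48 h. FGF8 was thus present only before day 0, and both arms were then differentiated alike. Controls are untreated in the labels and vehicle-treated in the methods. The libraries labelled D7 were taken as day 9 of the study, which had 7 days on differentiation medium. The labels do not say how D7 was counted. The growth text given with the samples describes white preadipocytes, whereas the titles and the study design describe immortalized brown cells. The induction medium of both arms contained IBMX, an inhibitor of phosphodiesterases, together with insulin, T3, dexamethasone, indomethacin and rosiglitazone.

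The libraries held between 16403254 and 38551551 counts. Counts are given after division by a size factor per library (normalized counts). With 1 library per condition, no difference within a day has a replicate check. The intervals below are 95% exact binomial (Clopper-Pearson) intervals of the ratio of both counts and cover counting error only. The summed normalized counts of 6 adipocyte markers were 554 and 399 at day 0 and between 230168 and 457349 later, while those of 5 preadipocyte markers were between 6869 and 37585 after day 0 against 130131 and 29266 at day 0. Markers of leukocytes summed to 44.8 to 153 normalized counts with Adgre1 at 0 in all 6 libraries, markers of Schwann cells and neurons to 298 to 867 with Th at 0 in all 6, and markers of smooth muscle to 570 to 4323. Markers of endothelium, mainly Kdr and Tek, summed to 1630 and 71.7 normalized counts in the untreated and FGF8 libraries of day 0, 213 and 34.4 on day 3, and 199 and 35.8 on day 9.

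The day 0 libraries also stood apart from the later ones in genes outside the marker lists. Xist, the X-inactivation RNA, had 3716 and 7473 normalized counts at day 0 and between 7.02 and 21.1 in the 4 later libraries, whereas 4 Y-linked genes summed to between 7030 and 9685 in all 6. Ifi202b and Gbp2b, both interferon-inducible, had 7311 to 15439 and 1197 to 7105 normalized counts at day 0 and at most 1 count later. Rpl29, a ribosomal protein gene, had 5 counts in each day 0 library and between 2804 and 6625 later, whereas Rps27a, another ribosomal protein gene, had between 3314 and 6272 normalized counts throughout. Every comparison of day 0 with a later day below carries this difference, whose part in the members' values was not tested, and it cannot be told apart from differentiation. The comparisons within a day and between day 3 and day 9 do not set day 0 libraries against later ones.

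Among the receptors, Adrb3 and Adrb1 were both higher on day 3 than on day 0, and Adrb1 was higher still on day 9. Adrb3, the beta receptor typical of rodent adipocytes, had 0 counts in both day 0 libraries, 1495 and 2146 normalized counts in the untreated and FGF8 libraries of day 3, and 1346 and 1246 at day 9. Adrb1, the beta receptor also found in heart and in dividing brown preadipocytes, had 2.94 and 3.84 normalized counts at day 0 (2 and 3 counts), 66.2 and 140.4 at day 3, and 442.2 and 790.2 at day 9. Every later library thus exceeded both day 0 libraries for both genes, and between day 3 and day 9 the counts of Adrb1 were higher and those of Adrb3 lower in both arms.

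**Figure D1:**
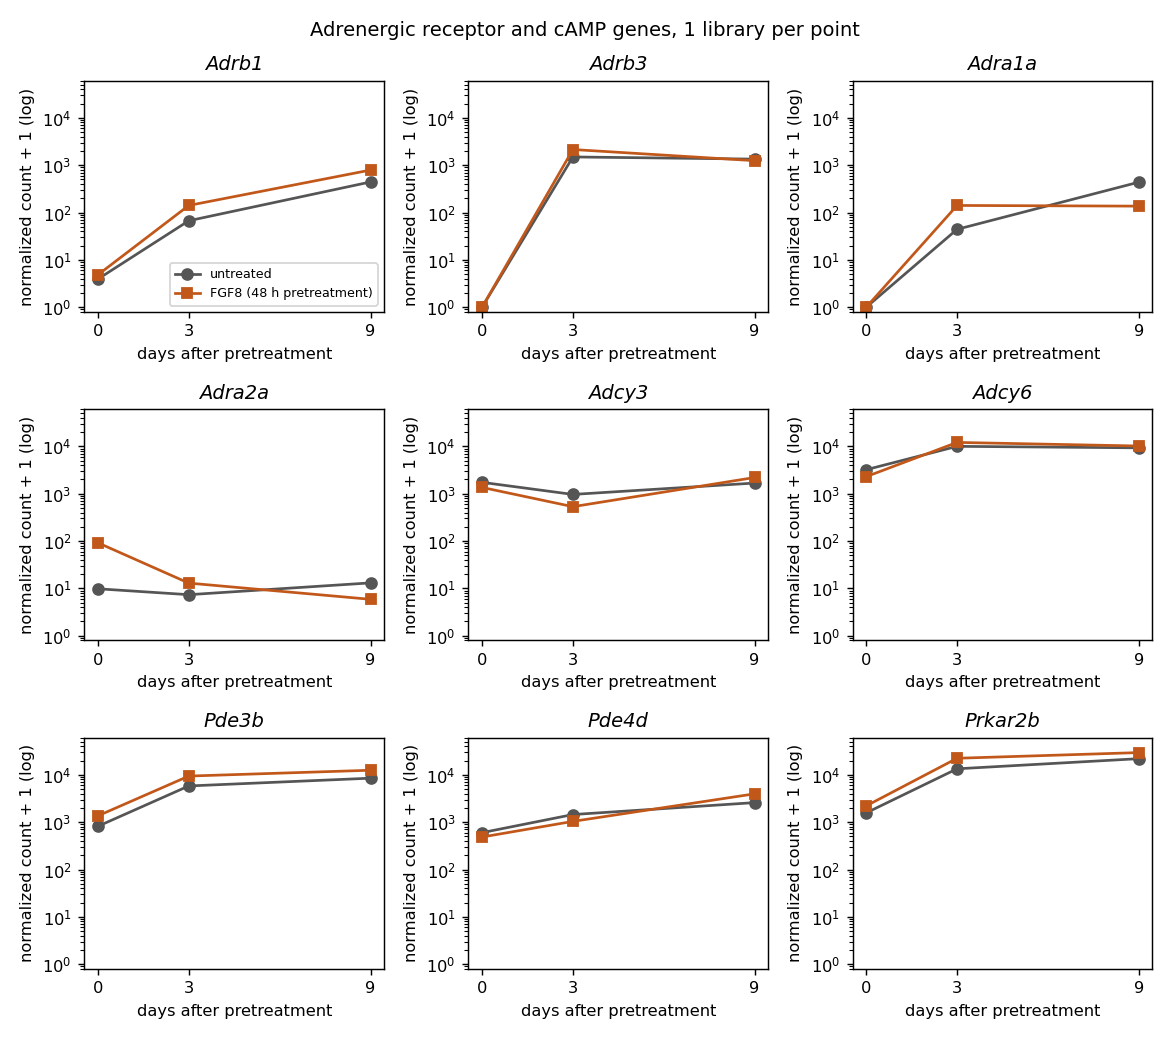
Normalized counts plus 1 (log axis) of the 9 genes against days after pretreatment, 1 library per point, in untreated (grey circles) and FGF8 (orange squares) cells; the lines join libraries of 1 treatment. Adrb3 and Adra1a start at 0 counts, Adra2a has its highest value, 90.9, in the FGF8 library of day 0, and the lines of Adra1a cross between day 3 and day 9.

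Adrb3 lies on chromosome 8 (27715443 to 27740925, minus strand, GRCm39). Against a floor of 3 counts in the day 0 library, Adrb3 was at least 339-fold higher at day 3 in untreated cells and at least 559-fold higher in FGF8 cells. From day 3 to day 9 it was lower by 0.15 on the log2 scale in untreated cells (interval -0.26 to -0.046) and by 0.78 in FGF8 cells (log2 difference -0.78, interval -0.87 to -0.69). FGF8 cells had more Adrb3 at day 3, with a log2 difference of 0.52 (0.42 to 0.62), and slightly less at day 9, with -0.11 (-0.21 to -0.013). Both differences stayed under 2-fold. Of the exon bases of Adrb3, 44.4% overlap a gene on the other strand, Gm45470, and the strand setting of the counting is not given in the sources used here, so reads of that partner cannot be told apart.

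The FGF8 library of day 0 had no Adrb3 count while Ucp1, the uncoupling protein of brown fat, had 1328 normalized counts there against 0 in the untreated library of that day. The transcript of the thermogenic effector was thus counted in preadipocytes in which no transcript of Adrb3 was. The limit that a count of 0 allows, 3 counts, corresponds to 0.672 normalized counts of Adrb3 per kb of exon in that library.

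Adrb1 lies on chromosome 19 (56710631 to 56721545, plus strand). It was higher in the FGF8 than in the untreated library at each of the 3 days, by 0.30 on the log2 scale at day 0 (-2.74 to 3.97, from 2 and 3 counts), by 1.07 at day 3 (0.64 to 1.55) and by 0.84 at day 9 (0.69 to 0.98). The day 0 interval spans 0 widely, so nothing can be read from that day. At day 3 and day 9 the intervals exclude 0, and the difference at day 3 was 0.97, under 2-fold, when total counts replaced the size factors. Of the exon bases of Adrb1, 15.7% overlap Gm59077 and Gm59115 on the other strand, so the limit given for Adrb3 applies here too. Such overlaps covered 7.91% of Adra2a, 8.69% of Adcy6, 5.55% of Pde3b and 1.57% of Pde4d.

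Per kb of exon the ratio of Adrb3 to Adrb1 was lower on day 9 than on day 3. It was 13.4 (10.1 to 18.0) in untreated and 9.04 (7.83 to 10.5) in FGF8 cells at day 3. It was 1.80 (1.64 to 1.97) in untreated cells at day 9. In FGF8 cells at day 9 it was 0.933 (0.860 to 1.01), an interval that includes equal levels. The ratio was lower in the FGF8 library on both days, and with the length of the longest transcript in place of all exons it was 0.992 in that last library.

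Adra1a, the alpha-1A receptor, lies on chromosome 14 (66872700 to 67012152, plus strand). It had 0 counts in both day 0 libraries, 43.3 and 140.4 normalized counts in the untreated and FGF8 libraries of day 3, and 438.0 and 135.8 at day 9. FGF8 cells already held at day 3 the level they had at day 9, with a log2 difference between those days of -0.048 (-0.35 to 0.26), whereas untreated cells were higher at day 9 by 3.31 (2.84 to 3.88). FGF8 against untreated cells therefore gave a log2 difference of 1.68 (1.17 to 2.27) at day 3 and -1.68 (-1.95 to -1.44) at day 9, from 34 against 200 counts and from 617 against 167. Among members past the filter on low counts used below, Adra1a alone passed 2-fold in opposite directions, and whether the sign depends on the day has no test with 1 library per condition. Against the floor of day 0 the level at day 9 was at least 99.4-fold higher in untreated and at least 35.3-fold higher in FGF8 cells.

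Adra2a, the alpha-2A receptor that lowers cAMP, lies in a single exon on chromosome 19 (54032582 to 54037413, plus strand). Day 0 gave 6 counts without and 71 with FGF8, day 3 gave 5 and 17, and day 9 gave 17 and 6. After normalization these were 8.81 and 90.9, 6.36 and 11.9, and 12.1 and 4.88. The FGF8 library of day 0 was the only one of the 6 that was clearly above the rest, 10.3-fold over its untreated counterpart with a log2 difference of 3.23 (2.17 to 4.86). At day 3 and day 9 the log2 differences were 0.81 (-0.59 to 2.70) and -1.15 (-2.94 to 0.10), and neither interval excludes 0. In that FGF8 library of day 0 Adra2a was at 18.8 normalized counts per kb and Adrb1 at 1.14, a ratio of Adrb1 to Adra2a of 0.0604 (0.0122 to 0.184). In the 4 later libraries this ratio was between 14.9 and 231.

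The stretches before the annotated starts of Adrb1 and Adra1a are shown because both receptors were higher on day 3 than on day 0 and differed between arms. The sequences are the 250 bases upstream of the canonical transcript start in GRCm39, on the strand of the gene, and hold no base of an annotated protein-coding exon. Capitals mark TGACG, the core of the cAMP response element, and the E box CANNTG, each searched on both strands.
Adrb1 (chr19:56710381-56710630, plus strand): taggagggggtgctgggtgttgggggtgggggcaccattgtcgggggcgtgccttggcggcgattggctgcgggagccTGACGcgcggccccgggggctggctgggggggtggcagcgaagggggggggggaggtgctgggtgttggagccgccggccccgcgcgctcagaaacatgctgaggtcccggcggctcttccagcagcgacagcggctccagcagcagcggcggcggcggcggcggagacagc
Adra1a (chr14:66872450-66872699, plus strand): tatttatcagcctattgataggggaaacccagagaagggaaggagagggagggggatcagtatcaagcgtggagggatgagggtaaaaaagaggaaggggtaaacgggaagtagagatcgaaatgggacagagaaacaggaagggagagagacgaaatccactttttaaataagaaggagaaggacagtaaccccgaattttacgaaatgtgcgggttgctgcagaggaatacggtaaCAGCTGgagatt

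The Adrb1 stretch holds TGACG from 172 to 168 bases before the start, and 18% of 21751 promoters of this length hold those letters. The Adra1a stretch holds an E box, CAGCTG, from 12 to 7 bases before the start, as 64.8% of all promoters hold some E box. The full element TGACGTCA was found in 1.7% of all promoters and in 0 of the 9 members. Of the 9 member windows, 6 overlap annotated protein-coding exons and 4 of those, before Adrb3, Adra2a, Pde3b and Pde4d, lie wholly in exons, so that only 3 hold no such base. GC content was 75.6% before Adrb1 and 46.4% before Adra1a, against a median of 53.2% over all promoters. A match or its absence describes these letters only.

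Both cyclases were abundant at every time point. Adcy6, a calcium-inhibited cyclase, had 3212 and 2288 normalized counts in the untreated and FGF8 libraries of day 0, 10006 and 12103.5 on day 3, and 9294 and 10166 on day 9. Adcy3 had 1736 and 1356 on day 0, 963 and 531 on day 3, and 1677 and 2198 on day 9. The later libraries all exceeded those of day 0 for Adcy6, while Adcy3 was lowest at day 3 in both arms and was higher again at day 9.

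Adcy6 lies on chromosome 15 (98487854 to 98507957, minus strand) and Adcy3 on chromosome 12 (4182969 to 4263527, plus strand). For Adcy6 the log2 difference between FGF8 and untreated cells was -0.49 (-0.58 to -0.40) at day 0, 0.27 (0.24 to 0.31) at day 3 and 0.13 (0.094 to 0.16) at day 9. For Adcy3 it was -0.36 (-0.48 to -0.24) at day 0, -0.86 (-1.01 to -0.71) at day 3 and 0.39 (0.31 to 0.47) at day 9. All 6 intervals exclude 0 and all 6 differences are under 2-fold. The gap from the low of Adcy3 at day 3 to day 9 was larger in FGF8 cells, at 2.05 (1.93 to 2.17), than in untreated cells, at 0.80 (0.68 to 0.92). Of the exon bases of Adcy3, 19.0% overlap Cenpo on the other strand, which had 194 to 375 counts per library.

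Per kb of exon, Adcy6 made up 57.4% of the level of all 10 cyclases in untreated and 38.0% in FGF8 cells at day 0, then 77.1% and 78.3% at day 3 and 68.5% and 72.4% at day 9. In the FGF8 library of day 0 Adcy7 held the largest share, 42.0%, against 18.1% without FGF8, and at most 2.15% later. Adcy5 held 0.12% in both day 0 libraries and between 13.1% and 17.3% afterwards. Adcy3 held 17.4% and 12.6% at day 0 and its lowest share, 1.93%, in the FGF8 library of day 3.

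**Figure D2:**
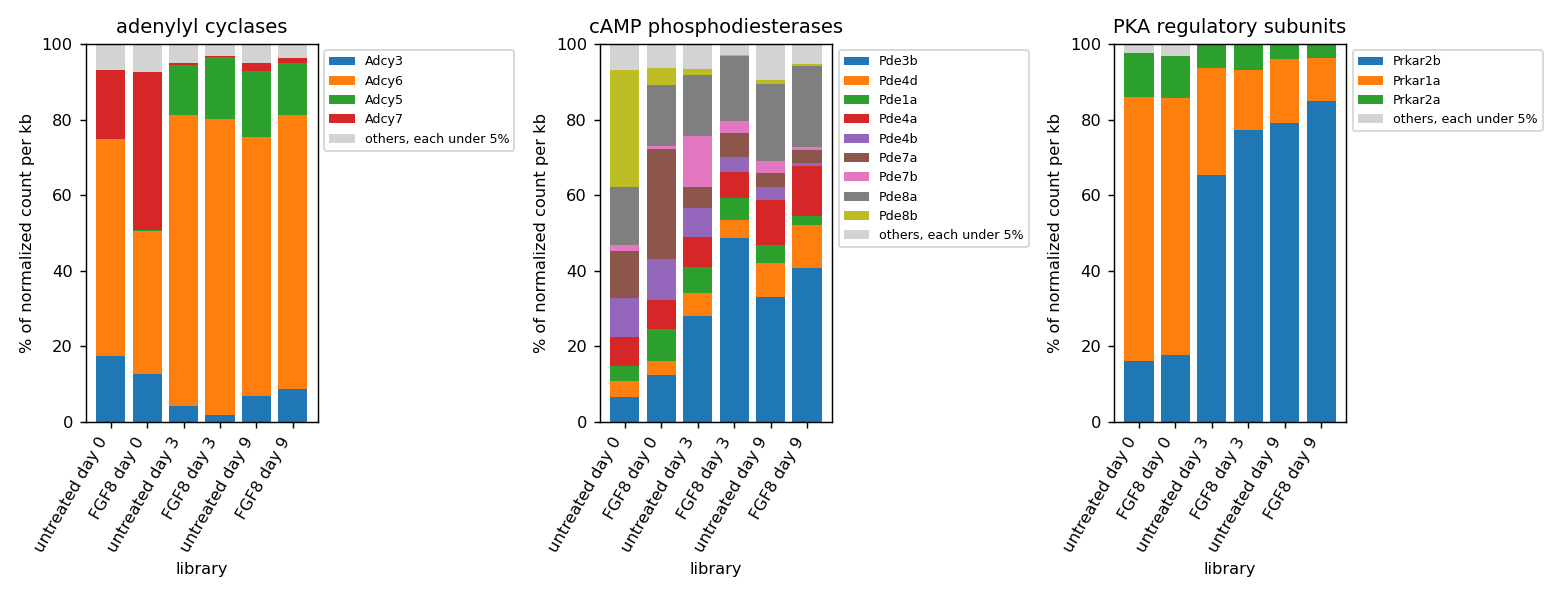
Share of the summed normalized count per kb of exon, in percent, held by each gene of the adenylyl cyclases, the phosphodiesterases that hydrolyse cAMP and the PKA regulatory subunits, 1 bar per library; genes under 5% in all libraries are pooled in light grey. Adcy6, Pde3b and Prkar2b hold larger shares in all 4 later libraries than in either library of day 0, with Prkar2b at 84.9% in the FGF8 library of day 9.

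Both phosphodiesterases were more abundant after day 0, with different courses. Pde3b, which insulin activates to oppose lipolysis, had 816.7 and 1358 normalized counts in the untreated and FGF8 libraries of day 0, 5816 and 9405 on day 3, and 8488 and 12487 on day 9. Pde4d, a cAMP-specific enzyme, had 599 and 484 on day 0, 1447 and 1037 on day 3, and 2587 and 3966 on day 9. Pde3b was above its untreated counterpart at every day, whereas Pde4d was below it at day 0 and day 3 and above it at day 9.

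Pde3b lies on chromosome 7 and Pde4d on chromosome 13. The log2 difference of Pde3b between FGF8 and untreated cells was 0.73 (0.58 to 0.88) at day 0, 0.69 (0.64 to 0.74) at day 3 and 0.56 (0.52 to 0.59) at day 9, so that it kept one sign and a similar size. That of Pde4d was -0.31 (-0.51 to -0.10), -0.48 (-0.59 to -0.37) and 0.62 (0.55 to 0.68). Per kb, the ratio of Pde3b to Pde4d was 1.54 (1.35 to 1.76) and 3.17 (2.82 to 3.58) at day 0, 4.55 (4.26 to 4.85) and 10.3 (9.72 to 10.8) at day 3, and 3.71 (3.58 to 3.85) and 3.56 (3.45 to 3.68) at day 9 in untreated and FGF8 cells. The arms thus differed at day 0 and day 3 and lay close together at day 9.

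Within the 16 phosphodiesterases that hydrolyse cAMP, Pde3b held 6.49% of the summed level per kb in untreated and 12.3% in FGF8 cells at day 0. Its share was 27.9% and 48.6% on day 3 and 33.0% and 40.6% on day 9. Pde8b, a high-affinity enzyme that IBMX does not inhibit, held 31.1% in the untreated library of day 0, 4.53% in the FGF8 library and at most 1.35% later. Pde8a, its close relative, stayed between 15.2% and 21.4% in all 6 libraries.

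Prkar2b, which encodes the type II beta regulatory subunit of PKA, was the most abundant member per kb in 5 of the 6 libraries, with Adcy6 ahead only in the untreated library of day 0. It lies on chromosome 12 (minus strand). Normalized counts were 1569 and 2203 in the untreated and FGF8 libraries of day 0, 13392 and 22353 on day 3, and 21929.5 and 29477.5 on day 9. The FGF8 library was higher at each day, with log2 differences of 0.49 (0.38 to 0.60), 0.74 (0.71 to 0.77) and 0.43 (0.40 to 0.45).

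The balance of PKA regulatory subunits reversed with time. Per kb, the ratio of Prkar2b to Prkar1a, the widely expressed type I alpha subunit, was 0.228 (0.214 to 0.243) and 0.258 (0.245 to 0.271) at day 0, 2.30 (2.23 to 2.37) and 4.89 (4.78 to 4.99) at day 3, and 4.66 (4.56 to 4.77) and 7.46 (7.29 to 7.64) at day 9. Prkar2b held 16.0% and 17.6% of all regulatory subunits at day 0 and 79.0% and 84.9% at day 9. With the longest transcript in place of all exons these ratios were between 0.159 and 5.20, and the crossing from below to above 1 remained.

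The stretch before Prkar2b is given because its counts and those of Pde3b were the most alike among the members, with a Pearson r of 0.998 on the log2 scale over the 6 libraries, which share the time course and the day 0 difference. Capitals again mark the E box.
Prkar2b (chr12:32111364-32111613, minus strand): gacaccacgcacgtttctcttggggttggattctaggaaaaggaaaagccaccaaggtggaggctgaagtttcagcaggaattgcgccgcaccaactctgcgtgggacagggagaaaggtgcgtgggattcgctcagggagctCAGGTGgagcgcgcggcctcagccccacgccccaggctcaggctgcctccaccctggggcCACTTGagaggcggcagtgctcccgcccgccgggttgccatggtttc

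It holds E boxes from 107 to 102 and from 47 to 42 bases before the start and a GC content of 63.6%. No TGACG was found in it.

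FGF8 against untreated cells at a single day was summarised by counting genes at least 2-fold apart, after a filter that required the pair to average 20 normalized counts or more. The filter uses the mean of the pair, so a gene high in 1 library alone can pass, among the members and among all genes. At day 0, 6 of the 9 members passed this filter and 1, Adra2a, was at least 2-fold higher, against 7.27% of all genes higher and 18.1% in either direction. Adra2a passed only through its FGF8 library, at 90.9 normalized counts against 8.81 untreated, so the filter favoured this count. At day 3, 8 passed and Adrb1 and Adra1a were higher, against 3.8% of all genes higher and 15.9% in either direction. At day 9, 8 passed and Adra1a was lower, against 1.12% of all genes higher, 8.74% lower and 9.85% in either direction. The members not passing were Adrb1, Adrb3 and Adra1a at day 0 and Adra2a at days 3 and 9. The members that passed had median log2 differences of 0.091, 0.61 and 0.41 at the 3 days, beside medians of 0.054, 0.081 and 0.083 over all genes that passed.

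**Figure D3:**
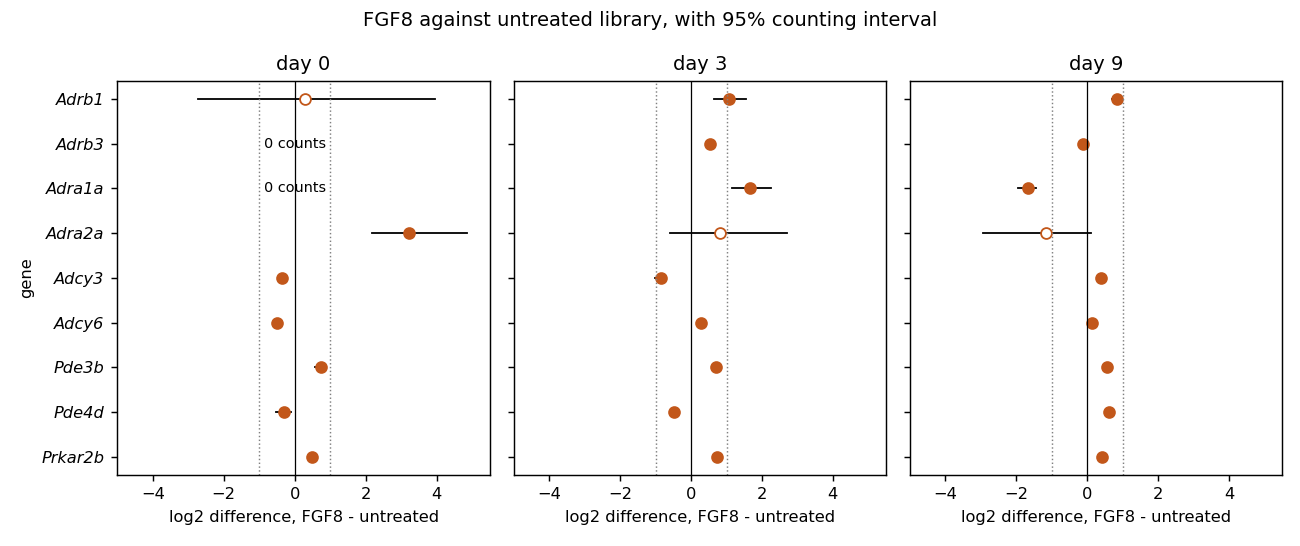
FGF8 minus untreated, as the difference of log2(normalized count + 1), at day 0, 3 and 9 for each gene, with 95% counting intervals (counting error only); dotted lines mark 2-fold, and open symbols have a pair mean under 20 normalized counts. Pde3b and Prkar2b lie right of 0 in all 3 panels, and Adra1a lies beyond 2-fold on the right at day 3 and on the left at day 9.

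At day 3 all 6 adipocyte markers were also higher after FGF8 (median log2 difference 0.83), and their sum was 452964 against 230168 normalized counts. The markers ranged from 0.64 to 1.04. Pde3b (0.69) and Prkar2b (0.74) lay within that range, and Adrb1 (1.07) and Adra1a (1.68) above it. Adrb3 (0.52), Adcy6 (0.27), Pde4d (-0.48) and Adcy3 (-0.86) lay below it, while Adra2a, at 0.81, did not pass the filter. At day 0 the 3 markers past the filter ranged from -1.36 to 0.11. Pde3b (0.73), Prkar2b (0.49) and Adra2a (3.23) lay above that range, and Adcy3, Adcy6 and Pde4d within it. At day 9 the markers ranged from 0.19 to 0.37. Pde3b (0.56), Prkar2b (0.43), Adrb1 (0.84), Pde4d (0.62) and Adcy3 (0.39) lay above that range, and Adcy6 (0.13), Adrb3 (-0.11) and Adra1a (-1.68) below it. The 6 adipocyte markers had a median difference of 0.32 at day 9. All 5 preadipocyte markers were at least 2-fold lower in FGF8 cells at day 3 and at day 9. At day 0, before differentiation, 4 of the 5 (Pdgfra, Pdgfrb, Ly6a and Dlk1) were already at least 2-fold lower. Over the 3 days edgeR called Pdgfra, Pdgfrb and Dlk1 lower (adjusted p = 0.0499, 0.0464 and 0.0448). The endothelial markers Kdr and Tek were lower in the FGF8 library on each day, Kdr with 1288 normalized counts without and 7.68 with FGF8 at day 0. Over the 3 days edgeR called Tek lower (log2 fold change -2.80, adjusted p = 0.0429). The other endothelial markers had few counts. At day 0 Pecam1 (1 count without and 10 with FGF8) and Cdh5 (3 and 7) were higher with FGF8, and Emcn (7 and 0) was lower. In bulk RNA, a larger share of adipocytes and more transcript per adipocyte cannot be told apart, and the part of the markers in the members' values was not tested.

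For an effect of FGF8 common to day 0, day 3 and day 9, edgeR's quasi-likelihood test was used, in which the days stood in for replicates. The fit called 185 of 14569 genes (1.27%, with 0.0206% higher and 1.25% lower) and 0 of the 9 members, of which 3 had an unadjusted p under 0.05. These were Pde3b (log2 fold change 0.64, SE 0.13, Benjamini-Hochberg adjusted p = 0.0981), Adrb1 (0.88, SE 0.24, adjusted p = 0.137) and Prkar2b (0.53, SE 0.16, adjusted p = 0.160). Pde3b and Prkar2b were higher in FGF8 cells on each day, and Adrb1 on day 3 and day 9, with day 0 too low to read. DESeq2's Wald test with the same design called 2 members, Pde3b (adjusted p = 0.00175) and Prkar2b (adjusted p = 0.0209), both higher, against 3.47% of all genes higher and 12.4% in either direction. With both day 0 libraries left out, edgeR called 1 member, Adrb1 (log2 fold change 0.92, adjusted p = 0.0253), against 3.96% of all genes higher and 15.5% in either direction, and gave Pde3b an adjusted p of 0.0605. Over the 7 alternatives the edgeR and DESeq2 adjusted p ranged from 0.00175 to 1.00 for Pde3b, from 0.0253 to 1.00 for Adrb1 and from 0.0209 to 1.00 for Prkar2b. The other 6 members had differences that changed sign between days or were near the counting limit. Their adjusted p was between 0.550 and 0.967 in the main edgeR fit. Over the alternatives their edgeR and DESeq2 adjusted p ranged from 0.371, for Adcy3, to 0.9998.

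Differentiation was tested in the same fit, with both arms standing in for replicates of a day. Between day 0 and day 3, edgeR called 7 of the 9 members higher, against 26.2% of all genes higher, 19.8% lower and 46.0% in either direction. The rises were 4.92 (SE 0.38, adjusted p = 0.00305) for Adrb1, 2.07 (SE 0.25, adjusted p = 0.00558) for Adcy6, 2.87 (SE 0.17, adjusted p = 0.00238) for Pde3b, 1.26 (SE 0.32, adjusted p = 0.0298) for Pde4d and 3.28 (SE 0.22, adjusted p = 0.00249) for Prkar2b on the log2 scale. Adrb3 (adjusted p = 0.00236) and Adra1a (adjusted p = 0.0273) were also called, and their size is given only by the bounds above. Adcy3 had a log2 fold change of -1.01 (SE 0.33, adjusted p = 0.0603), and DESeq2's Wald test called it (adjusted p = 0.0111). Adra2a was not called, at -2.14 (SE 1.10, adjusted p = 0.166). Over the 4 alternatives the highest adjusted p of a called member was 0.0342, for Pde4d.

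Between day 0 and day 9 the same 7 members were called higher, against 29.2% of all genes higher and 54.0% in either direction. The largest rise that does not start from 0 counts was that of Adrb1, at 7.51 (SE 0.38, adjusted p = 0.00148). By normalized counts the log2 difference was 6.81 (5.37 to 10.28) in untreated and 7.35 (6.13 to 9.96) in FGF8 cells, from 2 and 3 counts at day 0. These comparisons have no value without the day 0 libraries.

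Between day 3 and day 9, which the day 0 libraries do not enter as a group, edgeR called 10 genes (0.0686%, with 0.0618% higher and 0.00686% lower) and 0 of the 9 members, of which 5 had an unadjusted p under 0.05. These were Adrb1 (2.59, SE 0.26, adjusted p = 0.0588), Adcy3 (1.41, SE 0.34, adjusted p = 0.127), Pde4d (1.39, SE 0.32, adjusted p = 0.120), Prkar2b (0.53, SE 0.20, adjusted p = 0.225) and Pde3b (0.46, SE 0.16, adjusted p = 0.210). DESeq2's Wald test called 3 of them, Adrb1 (adjusted p = 7.31e-10), Adcy3 (adjusted p = 0.00287) and Pde4d (adjusted p = 0.00213), all higher, against 6.12% of all genes higher and 9.5% in either direction. Each of the 5 was higher at day 9 in both arms.

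The wider pathway was described with 9 lists of 75 further genes, of which 68 were tested by edgeR. For the shared FGF8 effect edgeR called 0 of them, with 14 at an unadjusted p under 0.05. DESeq2's Wald test called 8 of the 72 genes it fitted, all lower in FGF8 cells, against 8.92% of all genes lower. At single days, 5 of the 54 genes past the filter were at least 2-fold higher (9.26%, against 7.27% of all genes) and 14 lower (25.9%, against 10.8%) at day 0. At day 3, 3 of 60 were higher (5%, against 3.8%) and 15 lower (25%, against 12.1%), and at day 9, 0 of 61 were higher (against 1.12%) and 12 lower (19.7%, against 8.74%). Their medians were -0.075, -0.073 and -0.15. Between day 0 and day 3 edgeR called 25 of the 68 higher (36.8%, against 26.2% of all genes) and 11 lower (16.2%, against 19.8%). Between day 0 and day 9 it called 28 higher (41.2%, against 29.2%) and 15 lower (22.1%, against 24.8%). Between day 3 and day 9 it called 0, with 24 at an unadjusted p under 0.05, where DESeq2's Wald test called 11 of 72, against 9.5% of all genes.

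**Figure D4:**
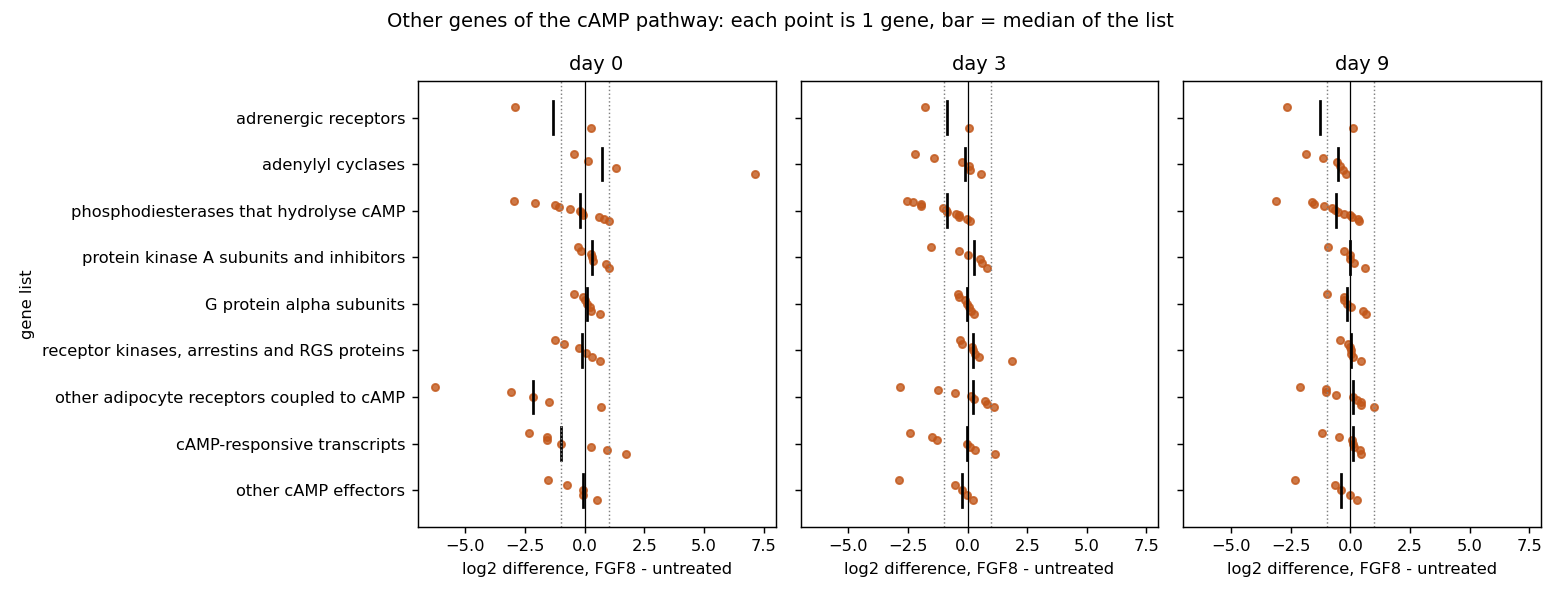
FGF8 minus untreated, as the difference of log2(normalized count + 1), for 75 further genes of the cAMP pathway in 9 lists, 1 point per gene past the filter of 20 normalized counts in the pair, with black bars at the list medians and dotted lines at 2-fold. List medians lie between -2.17 and 0.72 at day 0, where Npy1r at -6.27 and Adcy8 at 7.13 lie farthest from 0.

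Of 4 further adrenergic receptor genes in these lists, Adra1d and Adra1b were detected. Adra1d had 74.9 and 8.96 normalized counts in the untreated and FGF8 libraries of day 0, 504 and 530 on day 3, and 349 and 379.6 on day 9, and was called higher between day 0 and day 3. Adra1b had 30.8 and 37.1, then 267 and 77.9, then 87.3 and 13.0, and so was 3.43-fold and 6.71-fold lower in the FGF8 libraries of day 3 and day 9. At day 9 both Adra1a and Adra1b were thus lower after FGF8, while Adra1d differed by 0.12 on the log2 scale.

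Of 8 other cyclases, 2 were at least 2-fold higher with FGF8 at day 0, 2 lower at day 3 and 2 lower at day 9. Adcy8 had 0 counts without and 109 counts with FGF8 at day 0, at least 31.7-fold higher against the floor, and at most 9 counts later. Adcy7 had 1686 and 4200 normalized counts at day 0 and 91.95 to 483 later. Adcy1 was 4.72-fold and 3.86-fold lower in the FGF8 library at days 3 and 9, Adcy4 2.64-fold lower at day 3. Adcy5, the most abundant of them, had 7.34 and 7.68 normalized counts at day 0 and between 1814 and 2681 later, and edgeR called it higher between day 0 and day 3 (adjusted p = 0.00192).

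Of 14 other phosphodiesterases, 1 was at least 2-fold higher with FGF8 at day 0 and 4 lower, 5 were lower at day 3 and 4 lower at day 9. Pde8b was lower on all 3 days, 7.82-fold, 3.91-fold and 2.16-fold, and so was Pde7b, 2.38-fold, 4.84-fold and 2.85-fold. Their shared effects were -2.06 (SE 0.40, adjusted p = 0.0897) and -1.73 (SE 0.25, adjusted p = 0.0611) by edgeR, and both were called by DESeq2's Wald test. Pde11a was lower at day 0 (4.32-fold) and day 9 (9.12-fold), and Pde3a, the other type 3 enzyme, 5.97-fold lower at day 3. Pde3b thus stood at 0.69 at day 3 where its closest relative Pde3a stood at -2.55. Pde8a, the most abundant, differed by -0.095, -0.028 and 0.34.

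Of 8 other PKA subunits and inhibitors, 1 was at least 2-fold higher at day 0 and 1 lower at day 3. Prkacb, a catalytic subunit, had 3494 and 7022 normalized counts at day 0 and between 1819 and 1888 later, and edgeR called it lower between day 0 and day 3 (-1.41, adjusted p = 0.01998). Pkia, an inhibitor of the catalytic subunits, was 2.92-fold lower in the FGF8 library of day 3. Prkar1a had between 6852 and 14816 normalized counts and was called lower between day 0 and day 9 (-0.80, adjusted p = 0.0401), opposite to Prkar2b.

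None of the 7 G protein alpha subunits differed 2-fold between arms at any day. Gnas, which encodes the stimulatory subunit and was the most abundant, had 23541 and 23561 normalized counts on day 0, 30933.5 and 37238.5 on day 3, and 55884 and 80767 on day 9. Of 7 receptor kinases, arrestins and RGS proteins, Rgs2 was 2.36-fold lower with FGF8 at day 0 and Grk3 3.68-fold higher at day 3. Grk3, a receptor kinase of the beta-adrenergic type, had 12 and 0 counts at day 0 and 3854 and 5263 normalized counts at day 9. Grk2, the other kinase of that type, stayed between 1651 and 2699 normalized counts.

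Of 13 other receptors coupled to cAMP in adipocytes, 4 were at least 2-fold lower with FGF8 at day 0, 1 was higher and 2 lower at day 3, and 3 lower at day 9. Npy1r, an inhibitory neuropeptide Y receptor, had 254 counts without and 3 counts with FGF8 at day 0, which is -6.27 on the log2 scale (-8.89 to -5.04), in the library where Adra2a, which couples to the same class of inhibitory G protein, was 10.3-fold higher. Adora1, the inhibitory adenosine receptor, had 0 and 1 counts at day 0, 1012 and 2203 normalized counts at day 3, and 2700.2 and 2888 at day 9. Adora2a and Adora2b, the stimulatory ones, had 35 and 4 counts and 133 and 243 counts at day 0, with Adora2b 7.98-fold lower at day 3. Hcar2, the nicotinic acid receptor, had 3 and 0 counts at day 0 and 165 and 228 normalized counts at day 9.

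Of 8 transcripts known to respond to cAMP, 1 was at least 2-fold higher with FGF8 and 3 lower at day 0, 1 higher and 3 lower at day 3, and 1 lower at day 9, with medians of -0.996, -0.039 and 0.12. Ppargc1a, the coactivator of mitochondrial biogenesis, was 3.16-fold lower at day 0 and 2.24-fold higher at day 3, from 747 and 3034 counts. Nr4a2 was 3.36-fold higher at day 0, and Sik1 and Dio2 were 2.97-fold and 5.05-fold lower. Of 6 other effectors of cAMP, Rapgef3, which encodes the cAMP sensor EPAC1, was lower at all 3 days, 2.90-fold, 7.66-fold and 5.11-fold, and Crtc2, a coactivator of CREB, differed by -0.062, 0.23 and 0.26.

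The genes whose log2 values followed those of a receptor most closely were named from 11381 genes over the 6 libraries, as a description. For Adrb1 they were Prdm11 (r = 0.999), Cry2 (0.998) and Mindy2 (0.998). For Adrb3 they were Atp6v0c-ps2, B430010I23Rik and Rpl29, each with r of at least 0.999, a pattern set by the step from day 0 to day 3, and Rpl29 is among the genes in which the day 0 libraries stood apart. For Adra1a they were Acbd4 (0.999), Sox6 (0.998) and Abcd3 (0.992). For Adra2a they were Mast2 (0.978), Gtf3c3 (0.971) and Megf10 (0.967), and these rest on the FGF8 library of day 0. The number of genes with r over 0.99 was 78 for Adrb1, 174 for Adrb3, 11 for Adra1a and 0 for Adra2a.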

How the data were processed

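The 6 libraries were grouped by their labels. The authors used TrimGalore for trimming, HISAT2 for alignment to GRCm39 and featureCounts for counting, and deposited raw counts per gene. The kit was stranded. The strand setting of the counting, the treatment of multiply mapped reads, the annotation and the tool versions are not given in the sources used here.

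Counts were divided by DESeq2 size factors (version 1.42.0) over the 6 libraries. A difference within a day is that of log2(normalized count + 1), which understates changes of low genes, and its 95% interval and the floor of 3 counts per library cover counting error only. Depth was 16403254 to 38551551 counts, which gives wide intervals for receptors at day 0 and narrow ones for enzymes. Genes 2-fold or more apart were counted where the pair averaged 20 normalized counts or more. Effects shared by days or arms were tested with edgeR 4.0.16 (TMM, filterByExpr, quasi-likelihood test, terms for day and treatment, 2 residual degrees of freedom, Benjamini-Hochberg adjustment over all genes tested, adjusted p under 0.05). Days and arms there stand in for replicates, so p-values measure the spread between these libraries, and standard errors were derived from the F statistic. Shares of all genes called by DESeq2 are over genes to which it gave an adjusted p. The scripts were tested on simulated data. Software was Python 3.11.15 with pandas 2.3.3 and scipy 1.17.1, and R 4.3.3.

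Levels of different genes were compared per kb of merged exons of GENCODE M39, which also gave coordinates, and promoters were read from GRCm39. All 9 members and 121 of 121 genes of the lists matched by symbol.

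The rule named 10 symbols, of which 1 is not reported here. The members and lists were chosen with earlier results of these data known. Of 9 lists of the wider pathway, the text names detected genes at least 2-fold apart between arms at any day, at most 4 per list, and the most abundant one. Markers of adipocytes, brown adipocytes, preadipocytes, leukocytes, endothelium, smooth muscle, and Schwann cells and neurons were summed. For each receptor, 3 genes of like pattern were taken among genes averaging 100 normalized counts or more. The choice of Xist, Ifi202b, Gbp2b, Rpl29, Rps27a and Y-linked genes came after seeing their values. The alternatives were other size factors, pseudocounts of 0.5 and 5, other filters, fold rules of 1.5 and 4, the Wald test of DESeq2, fits without day or treatment term, leaving out each day, and the longest transcript as length.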

Additional observations from a re-analysis of the deposited data

Results flagged for a closer look

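For 5 members the difference between FGF8 and untreated cells had opposite signs at different days, each day with 1 library per arm, and the difference between days was not tested. Adrb3 was at 0.52 at day 3 and -0.11 at day 9 on the log2 scale. Adra1a was at 1.68 at day 3 and -1.68 at day 9. Adcy3 was at -0.36, -0.86 and 0.39 at days 0, 3 and 9. Adcy6 was at -0.49, 0.27 and 0.13. Pde4d was at -0.31, -0.48 and 0.62. Of these, the values of day 0 come from the libraries that stood apart in Xist, Ifi202b and Rpl29, and the sign changes of Adrb3, Adra1a, Adcy3 and Pde4d between day 3 and day 9 do not involve them.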

How the results depend on the processing

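With 1 library per condition, no difference within a day can be tested, and depth limits Adrb1 and Adra2a, whose intervals at low counts are wide. No paired analysis was possible because each condition has 1 library and every library carries the same replicate number, so the day term is the only block. Of 395 log2 differences of members recomputed with other size factors or pseudocounts, 0 changed sign, and 53 moved beyond their counting interval. Total counts shifted the median of all genes to 0.11 for FGF8 at day 0 and to -0.31 between day 0 and day 9 in FGF8 cells, and TMM to 0.12 for FGF8 at day 9.

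Members at least 2-fold apart numbered 0 at a mean of at least 100 and 2 at 1.5-fold at day 0. At day 3 they numbered 1 with total counts, 1 at a mean of at least 100, 5 at 1.5-fold and 0 at 4-fold. At day 9 they numbered 2 without a filter, 3 at 1.5-fold and 0 at 4-fold. Genes at least 2-fold apart numbered 5192, 4456 and 3208 at days 0, 3 and 9 without a filter, 4397, 4566 and 2659 at 1.5-fold, 810, 302 and 363 at 4-fold, and 805 at day 9 at a mean of at least 100. For the shared FGF8 effect, edgeR called 94 genes with DESeq2 size factors, 419 without a filter, 0 without the day term, 2230 without day 0, 0 without day 3 and 0 without day 9, and DESeq2's Wald test called 1696. Unadjusted p-values under 0.05 numbered 575, 1510 and 1868 in the 3 edgeR fits with 0 calls. Members called were 2 with DESeq2's Wald test and 1 without day 0. Between day 0 and day 3, 4436 genes were called without the treatment term. Between day 3 and day 9, 268 genes and 1 member were called without a filter, 1336 genes and 3 members by DESeq2's Wald test, and 3 genes without the treatment term. The cause of these changes was not tested.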

Other observations

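The 5 brown adipocyte markers, of which Ucp1 and Dio2 are also named above, were higher in sum in the FGF8 library on each day, but not each by itself. Their summed normalized counts were 325 and 1447 in the untreated and FGF8 libraries of day 0. They were 2897 and 10081 on day 3 and 124810 and 147858 on day 9. Most of the FGF8 sum of day 0 was Ucp1, at 1328 against 0. Cox7a1 and Elovl3 were also higher there, Dio2 was lower (60.2 against 304), and Cidea had 0 counts in both libraries. At day 9 Elovl3 (4788 against 6257) and Dio2 (18.7 against 26.3) were lower after FGF8, while Ucp1, Cidea and Cox7a1 were higher. At day 3 the FGF8 library had 4287 normalized counts of Ucp1 against 319 in the untreated one, while Adrb3 was at 2146 against 1495. At day 9 Ucp1 stood at 99587 and 91306, and Adrb3 at 1246 and 1346, so that neither arm had more than 1.09-fold of the other in either gene. Cidea, a lipid droplet protein, had 415.5 against 33.1 normalized counts at day 3.

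Of all 26264 genes, 20 had at most 3 counts in both day 0 libraries and at least 1000 normalized counts in each later one. Adrb3 and Adora1 were among them, together with the adipocyte markers Adipoq, Plin1 and Cidec. In the opposite direction there were 3, Ifi202b, Gbp2b and Ptchd1, which were named after their values were seen.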
